A study of Mus musculus with 8 samples.

Results

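The 36 genes described here are those of the unfolded protein response and the integrated stress response, chosen by symbol as stress sensors, endoplasmic reticulum (ER) chaperones, ER-associated degradation (ERAD) factors and targets of the transcription factor ATF4. All 36 were present among the 55487 rows of the table, on 37 rows, since Ddit3 has 2 gene IDs. They were measured by bulk poly(A) RNA-seq in the ileum of irinotecan-treated mice, in 4 libraries from Gsdme-/- mice (here Gsdme_KO) and 4 from Gsdme+/+ mice (here WT). Both genotypes received irinotecan, a topoisomerase I inhibitor used in chemotherapy. Gasdermin E, the product of Gsdme, forms pores in the plasma membrane once cut by caspases. Without untreated mice, which were not analysed here, nothing below measures the drug response itself. The sources used here give no strain, age, dose or time of the mice, and do not say in which cells or how the Gsdme allele was made.

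Unfolded proteins in the ER are sensed by IRE1 (genes Ern1 and Ern2), PERK (Eif2ak3) and ATF6. IRE1 splices the mRNA of the transcription factor XBP1, ATF6 is cut to release a transcription factor, and PERK phosphorylates the initiation factor eIF2 alpha, which lowers protein synthesis in general while favouring translation of ATF4. GCN2 (Eif2ak4) acts on the same factor when amino acids are short, and that shared arm is called the integrated stress response. In the intestine, secretory cells such as goblet, Paneth and plasma cells carry a high load of ER protein folding, and IRE1 beta (Ern2) is known mainly from mucus-secreting epithelium. Counts per gene report neither XBP1 splicing nor phosphorylation nor protein.

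Libraries held 15617407 to 23437343 reads in genes. They are called by their column names, KO4, KO5, KO7 and KO8 and WT3, WT5, WT7 and WT8, whose numbers cannot be tied to the mouse numbers of the labels. Values are normalized counts, that is reads divided by 1 size factor per library, unless stated. Gsdme itself (ENSMUSG00000029821) had 113, 187, 634 and 464 in KO4, KO5, KO7 and KO8, against 3376, 2169, 3164 and 2696 in WT3, WT5, WT7 and WT8 (log2 difference -3.32, two-sided exact permutation p = 0.0286, the smallest that 4 against 4 can give). Across all genes its adjusted p was 0.786 by limma and 2.3e-07 by DESeq2, so that even this difference was not called by limma. The ileal bile acid transporter Slc10a2 was present in all 8 libraries, at 7983 to 24892 in Gsdme_KO and 18982 to 25319 in WT. The first principal component (49.1% of the variance) set KO4 (91.5) and KO5 (46.5) off from the remaining libraries (-35.3 to -1.37). The summed count of 8 B cell and follicle markers reached 9233 (KO4) and 5237 (KO5), while KO7 and KO8 had 312 and 236 and the WT libraries 204 to 308. For 10 mature enterocyte markers the sums were 95413 (KO4), 137236 (KO5), 411758 (KO7) and 308354 (KO8), against 235917 to 419802 in WT. In bulk tissue, fewer cells of a type and less RNA per cell cannot be told apart.

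The promoters of several of these genes carry matches to elements known to be read by ATF6, XBP1 or ATF4. They are shown as a description of the sequence and do not assign a gene to an arm of the pathway. RefSeq promoters (build GRCm38.p6, 250 bases before to 50 after the start) matched 32 of the 36 genes. The ER stress element ERSE, the site known for ATF6 with the factor NF-Y, was searched on both strands as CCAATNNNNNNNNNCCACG. It occurred in 8 of the 32 genes and in 0.137% of all 27025 genes with a promoter. Of the 8, 6 are chaperone genes, Pdia6 is an isomerase gene and Syvn1 an ERAD gene. The sites follow with 20 bases on either side, read 5′ to 3′ on the strand of the motif, the motif in capitals; Hsp90b1 has 2.
Hspa5 (chr2:34772005-34772063, plus strand): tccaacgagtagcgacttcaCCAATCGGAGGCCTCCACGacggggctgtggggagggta
Calr (chr8:84847055-84847113, plus strand): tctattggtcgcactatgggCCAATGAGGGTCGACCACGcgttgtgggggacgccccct
Hsp90b1 (chr10:86705618-86705676, minus strand): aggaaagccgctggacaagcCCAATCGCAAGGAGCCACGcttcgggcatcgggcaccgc
Hsp90b1 (chr10:86705513-86705571, plus strand): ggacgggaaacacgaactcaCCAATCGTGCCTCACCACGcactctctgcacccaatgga
Canx (chr11:50325780-50325838, minus strand): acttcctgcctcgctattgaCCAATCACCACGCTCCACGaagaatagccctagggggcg
Pdia6 (chr12:17266471-17266529, plus strand): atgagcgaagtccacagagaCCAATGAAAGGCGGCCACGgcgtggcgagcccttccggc
Dnajc3 (chr14:118937807-118937865, plus strand): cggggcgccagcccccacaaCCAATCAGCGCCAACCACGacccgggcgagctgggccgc
Creld2 (chr15:88819500-88819558, minus strand): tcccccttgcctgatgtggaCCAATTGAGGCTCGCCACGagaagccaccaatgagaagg
Syvn1 (chr19:6046512-6046570, plus strand): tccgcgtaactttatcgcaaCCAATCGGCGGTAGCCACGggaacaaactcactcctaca

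The related ERSE-II, searched as ATTGGNCCACG on both strands, occurred in 1 of the 32 genes and in 0.0444% of all genes with a promoter. That gene was Herpud1, an ERAD component, and the capitals mark the element.
Herpud1 (chr8:94386357-94386407, plus strand): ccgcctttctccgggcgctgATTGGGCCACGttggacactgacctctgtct

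The C/EBP-ATF response element CARE, the site known for ATF4, was searched as TGATGNAA on both strands. It occurred in 5 of the 32 genes, Atf3, Trib3, Chac1, Asns and Herpud1, and in 4.51% of all genes with a promoter. In Trib3 it lay after the RefSeq start, at 15 to 22, and is not printed. In the GENCODE annotation the Trib3 match lies before the gene, whereas those of Atf3 and Asns lie inside theirs. All matches but that of Trib3 are shown with the element in capitals.
Atf3 (chr1:191183416-191183463, plus strand): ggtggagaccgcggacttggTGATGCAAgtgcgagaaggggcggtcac
Chac1 (chr2:119351029-119351076, minus strand): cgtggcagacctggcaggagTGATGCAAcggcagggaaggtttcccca
Asns (chr6:7693210-7693252, minus strand): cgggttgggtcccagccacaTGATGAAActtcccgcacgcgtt
Herpud1 (chr8:94386297-94386344, minus strand): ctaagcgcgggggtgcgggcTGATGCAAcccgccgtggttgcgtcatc

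Where not said otherwise, positions of genes are on GRCm38. Hspa5, which encodes the ER HSP70 chaperone BiP, has the best known of these promoters. The 250 bases before its RefSeq start (chr2:34771840-34772089, plus strand) hold 1 exact ERSE, at -65 to -47, and the core of the XBP1 element UPRE, TGACGTG, at -157 to -151, both in capitals and without overlap. The UPRE core occurred in no other of the 32 genes and in 2.22% of all genes with a promoter. GENCODE, from which the exon lengths below come, begins the Hspa5 gene within this stretch. A match is a description of the letters and not evidence of binding.
Hspa5: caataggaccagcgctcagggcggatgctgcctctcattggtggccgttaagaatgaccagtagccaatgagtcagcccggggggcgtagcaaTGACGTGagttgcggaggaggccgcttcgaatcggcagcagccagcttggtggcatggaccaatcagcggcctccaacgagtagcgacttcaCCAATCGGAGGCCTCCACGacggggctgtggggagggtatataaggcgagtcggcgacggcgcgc

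Abundance differed widely between the branches. Per kilobase of exon, which allows genes to be compared, Calr stood highest at 6470 normalized counts per kb over all libraries. It encodes calreticulin, a lectin chaperone of the ER lumen. Pdia3 (4284 per kb), Hspa5 (4224) and Hsp90b1 (3478) followed. The transcription factor genes Atf4 and Xbp1 had 1488 and 1459 per kb. The sensors were far lower, from 173 per kb for Eif2ak3 and 123 for Atf6 to 105 for Ern2, 72.8 for Ern1 and 23.5 for Eif2ak4, the lowest of the 36. The libraries of neighbours in this order overlapped for 32 of 35 pairs, such as Pdia3 and Hspa5. They did not for Calr over Pdia3 (at least 5507 against at most 4770 per kb), Hsp90b1 over Canx and Canx over Atf4. Lengths are the union of all annotated exons and so understate genes with long rare exons.

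**Figure D1:**
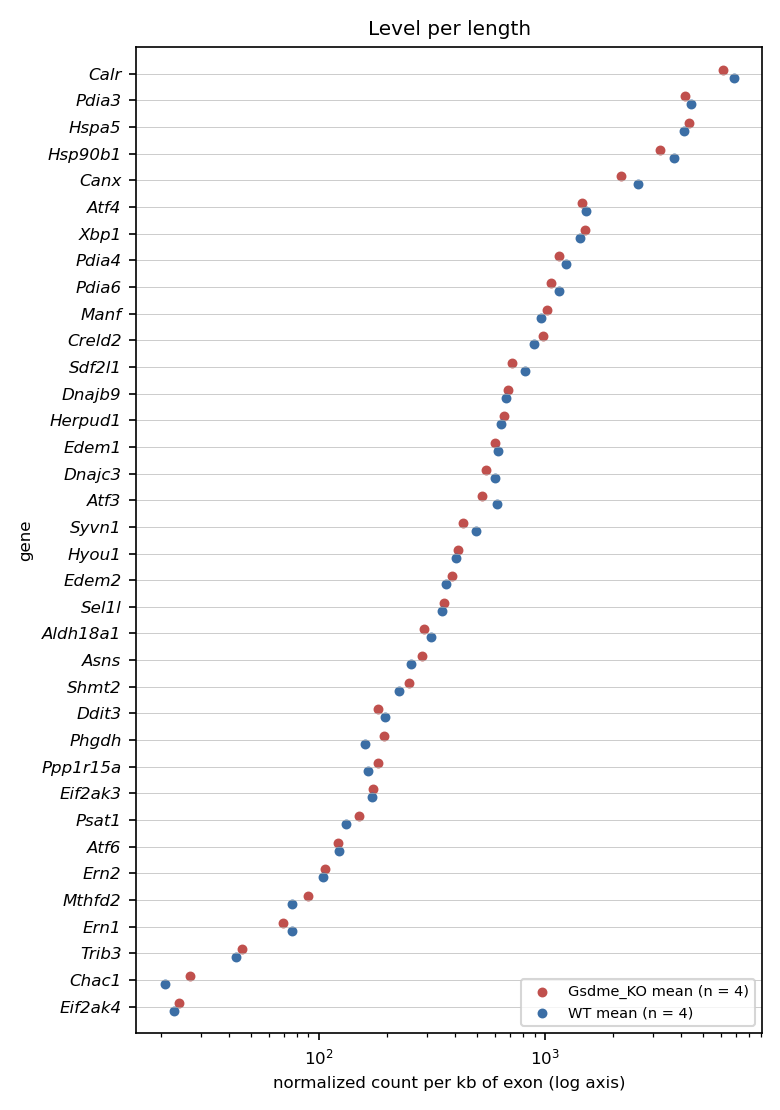
Mean level of each of the 36 genes in Gsdme_KO (red) and WT (blue), n = 4 libraries each, as normalized counts per kb of exon on a log axis, ordered by the mean over all libraries. The genes span 23.5 (Eif2ak4) to 6470 (Calr) per kb, and both genotypes follow nearly the same order.

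None of the 36 genes was called different between genotypes. By limma on log2(normalized count + 1), adjusted over 16352 genes averaging at least 10 (called at an adjusted p under 0.05), 0 were called higher and 0 lower in Gsdme_KO, against 0.00612% and 0% of all genes tested. The tests on recovered reads also called 0 of the 36, edgeR against 0.00612% of all genes called higher and 0% lower, and DESeq2 against 0.0489% and 0.00612%. At an unadjusted limma p under 0.05 stood 1 gene higher (Phgdh) and 1 lower (Canx), against 2.61% and 1.77% of all genes tested. DESeq2 gave the same 2 genes at that level, against 5.12% of all genes higher and 1.82% lower. By edgeR it was Phgdh alone, against 4.43% higher and 1.58% lower. Positive log2 fold changes were found for 19 and negative ones for 17, with a median of 0.02, against a median of 0.003 over all genes tested. The sign turned for 18 of the 36 with 1 of the libraries left out. The 95% intervals of 33 of the 36 lay within a 2-fold change in either direction, and those of 25 within a 1.5-fold change. Over all genes tested 76.9% lay within a 2-fold change, and 8581 of the 16352 within a 1.5-fold change. Of the 36, 34 had a mean of at least 100, whereas the genes tested include lower ones, down to a mean of 10. The 3 wider intervals belonged to Atf3, Trib3 and Chac1.

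**Figure D2:**
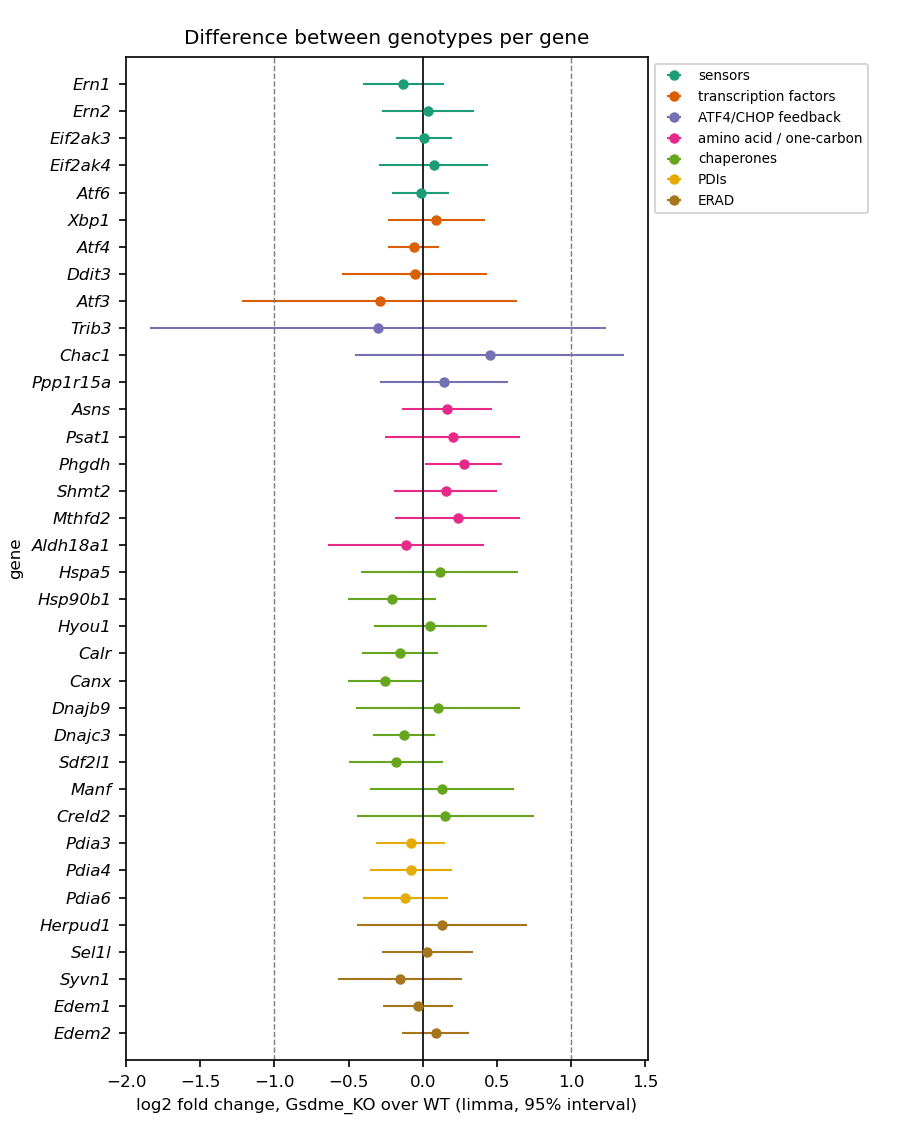
Log2 fold change of each gene, Gsdme_KO over WT, with its 95% interval from limma (n = 4 libraries each), coloured by branch; dashed lines mark a 2-fold change. Only Phgdh and Canx have intervals that leave out 0, before adjustment, and Atf3, Trib3 and Chac1 have intervals that cross a dashed line.

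The median residual SD of the sensors was 0.171 on the log2 scale, against 0.255 over all genes tested and 0.195 over genes with a mean of at least 100. Their log2 fold changes ran from -0.13 to 0.07, 3 positive and 2 negative, with a median of 0.008. Ern1 (ENSMUSG00000020715, chr11:106394650-106487852), the broadly expressed IRE1 gene, had 584, 573, 606 and 503.8 in KO4, KO5, KO7 and KO8, against 588, 514, 689 and 705 in WT3, WT5, WT7 and WT8. The genotypes overlapped (log2 fold change -0.13, SE 0.12, limma adjusted p = 0.849). Atf6 (ENSMUSG00000026663, chr1:170704674-170867771) had 1054, 1086, 1210 and 1160 in the Gsdme_KO libraries, against 1214, 1023, 1184 and 1137 in the WT libraries, a range of 1.19-fold from lowest to highest. Eif2ak3, the PERK gene, varied by 1.18-fold over all 8 libraries, with means of 1044 ± 67.3 in Gsdme_KO and 1038 ± 74.9 in WT (SD, n = 4). Ern2 had means of 316 ± 35.4 in Gsdme_KO and 309 ± 45.0 in WT (SD, n = 4). Eif2ak4 was higher in KO4, KO5 and WT8 (218, 195 and 204) than in the other 5 libraries (149 to 167), so that both genotypes held high and low libraries.

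Among the transcription factor genes, 1 log2 fold change was positive and 3 were negative, with a median of -0.06. Atf4 (ENSMUSG00000042406, chr15:80255184-80257541) varied least of all 36 genes, by 1.18-fold. It had 3504, 3323, 3495 and 3395 in the Gsdme_KO libraries, against 3891, 3486, 3672 and 3297 in the WT libraries (log2 fold change -0.06, SE 0.0759, limma adjusted p = 0.883). ATF4 is controlled largely at translation, which these data do not measure. Xbp1 (ENSMUSG00000020484, chr11:5520659-5525893), the target of IRE1, had 5410, 4509, 4747 and 4767 in the Gsdme_KO libraries, against 4193, 6077, 4398 and 3815 in the WT libraries. The highest and the lowest library were both WT, WT5 and WT8 (log2 fold change 0.09, SE 0.144, limma adjusted p = 0.914). Ddit3, which encodes the proapoptotic factor CHOP, had 266, 372, 292 and 320 in the Gsdme_KO libraries, against 308, 503, 259 and 270 in the WT libraries. WT5 was the highest library and the other 7 overlapped. The counts are uncertain because Ddit3 shares exon bases with Mars1 and Gm4189 on the other strand and the strand setting of the counting is not given. The other Ddit3 ID (ENSMUSG00000116429) was at 0 in all 8 libraries. It has 105 exon bases and shares exon bases with the main ID on the same strand, so this 0 does not measure its expression. Reads in the shared bases are uncertain for both IDs. Atf3, a stress-induced and immediate-early factor, ranged over 4.31-fold, with 1918, 1183, 936 and 496 in the Gsdme_KO libraries, against 1038, 930, 2140 and 1149 in the WT libraries. The 2 highest libraries were KO4 and WT7, and the lowest was KO8.

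The 3 feedback targets of ATF4 and CHOP had the largest median residual SD of the 7 branches, 0.623. Trib3, a pseudokinase that restrains ATF4 signalling, had 41.5, 20.3, 179 and 149 in KO4, KO5, KO7 and KO8, against 103, 138, 77.4 and 48.8 in WT3, WT5, WT7 and WT8, an 8.83-fold range. The Gsdme_KO libraries thus held both the 2 lowest and the 2 highest values, and its log2 fold change was -0.30 (SE 0.676), or 0.92 without KO4 and KO5, neither value called. By edgeR and DESeq2 its sign was positive, as is the difference of its mean counts. The 2 low libraries were those with the lowest summed enterocyte markers, whose part in the Trib3 values was not tested. Chac1 (ENSMUSG00000027313, chr2:119351229-119354381), which encodes a glutathione-degrading enzyme, was low, at 58.1, 52.6, 36.5 and 29.2 in the Gsdme_KO libraries, against 15.9, 53.6, 42.0 and 24.8 in the WT libraries. At 0.45 (SE 0.399, limma adjusted p = 0.849) it had the highest log2 fold change of the 36, and without KO4 and KO5 it had 0.08. Ppp1r15a (ENSMUSG00000040435, chr7:45522916-45526268) encodes GADD34, the phosphatase subunit that reverses eIF2 alpha phosphorylation. It had 678, 543, 482 and 433 in the Gsdme_KO libraries, against 450, 536, 598 and 358 in the WT libraries (log2 fold change 0.14, SE 0.189, limma adjusted p = 0.898). Without KO4 and KO5 its value was -0.06.

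Enzymes of asparagine, serine, one-carbon and proline synthesis, known as ATF4 targets, had higher means in Gsdme_KO for 5 of 6, with a median log2 fold change of 0.18, and 0 were called. Phgdh (ENSMUSG00000053398, chr3:98313170-98339990), which opens serine synthesis, had 527, 523, 386 and 493 in KO4, KO5, KO7 and KO8, against 378, 401, 394 and 410 in WT3, WT5, WT7 and WT8. KO4, KO5 and KO8 were above every WT library, and KO7 lay within the WT range (log2 fold change 0.28, SE 0.114, interval 0.015 to 0.53, unadjusted p = 0.0402, limma adjusted p = 0.849). Without KO4 and KO5 the log2 fold change was 0.14. Psat1, the next enzyme of that pathway, had means of 643 ± 146 in Gsdme_KO and 560 ± 128 in WT (SD, n = 4). Shmt2 and Mthfd2 carry the mitochondrial folate steps. Shmt2 had means of 777 ± 93.5 in Gsdme_KO and 704 ± 137 in WT, and Mthfd2 of 312 ± 64.9 in Gsdme_KO and 265 ± 49.1 in WT (SD, n = 4). Asns, asparagine synthetase, had 972, 750, 662 and 755 in the Gsdme_KO libraries, against 590, 705, 770 and 722 in the WT libraries. KO4 was the highest library for these 5 genes. It was also the highest library for 25.6% of all genes tested. Aldh18a1 (ENSMUSG00000025007, chr19:40550257-40588463), which starts proline synthesis, went the other way and was lowest in KO4. It had 750, 1179, 1440 and 1388 in the Gsdme_KO libraries, against 1316, 1002, 1662 and 1105 in the WT libraries (log2 fold change -0.11, SE 0.23, limma adjusted p = 0.932), and 0.18 without KO4 and KO5. Without those libraries the branch median was 0.04. The B cell and enterocyte marker sums given above were also at their extremes in KO4, and their part in these values was not tested.

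**Figure D3:**
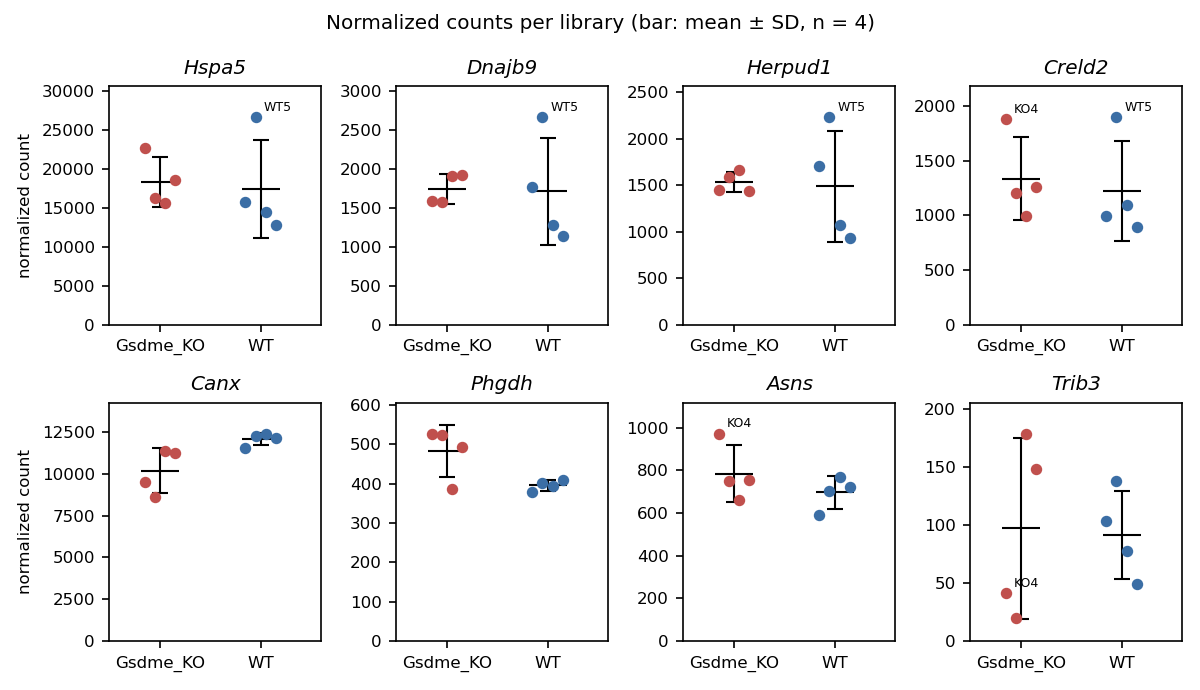
Normalized counts in each library for 8 genes, Gsdme_KO in red left of WT in blue, with the mean and SD (n = 4); the genes were chosen after their values were seen. WT5 is the highest library for Hspa5, Dnajb9, Herpud1 and Creld2, the 4 Canx values of Gsdme_KO lie below those of WT, and Trib3 is split within Gsdme_KO.

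ER chaperones and cochaperones were split evenly, with a higher mean log2 level in Gsdme_KO for 5 and a lower one for 5 (median log2 fold change -0.04). Canx (ENSMUSG00000020368, chr11:50293961-50325673) encodes calnexin, the membrane-bound lectin chaperone of glycoprotein folding. It had 9539, 8646, 11355 and 11256 in KO4, KO5, KO7 and KO8, against 11563, 12254, 12413 and 12158 in WT3, WT5, WT7 and WT8. It was the only one of the 36 whose libraries did not overlap between genotypes, where 1.19% of all genes tested lay apart in that direction and 1.31% in the other (log2 fold change -0.26, SE 0.11, interval -0.51 to -0.004, unadjusted p = 0.047, limma adjusted p = 0.849). KO4 and KO5 were the 2 lowest, and without them the log2 fold change was -0.10. The part of the B cell and enterocyte markers, also at their extremes in these libraries, was not tested. Calr (ENSMUSG00000003814, chr8:84841850-84846934), the luminal partner of calnexin, had 20156, 15860, 17300 and 17308 in the Gsdme_KO libraries, against 18571, 21816, 19292 and 18759 in the WT libraries. KO5, KO7 and KO8 were below every WT library, but KO4 was above 3 of them (log2 fold change -0.15, SE 0.113, limma adjusted p = 0.849). Hsp90b1, the ER HSP90, had means of 13015 ± 1617 in Gsdme_KO and 15032 ± 1925 in WT (SD, n = 4; log2 fold change -0.21, SE 0.13, limma adjusted p = 0.849).

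Hspa5 had 22708, 16310, 15605 and 18545 in the Gsdme_KO libraries, against 15816, 26663, 14420 and 12834 in the WT libraries. The WT libraries held both its highest value, in WT5, and its 2 lowest, in WT7 and WT8 (log2 fold change 0.11, SE 0.233, limma adjusted p = 0.932). Its log2 fold change was 0.34 without WT5 and -0.013 without WT8. Dnajb9, an HSP40 cochaperone of BiP that XBP1 is known to induce, had 1584, 1582, 1912 and 1920 in the Gsdme_KO libraries, against 1766, 2670, 1282 and 1145 in the WT libraries. Creld2, a secreted ER stress marker, had 1882, 1204, 995 and 1256 in the Gsdme_KO libraries, against 996, 1897, 1097 and 896 in the WT libraries. Both genes again had their highest and their lowest library within WT, and without WT5 their log2 fold changes were 0.34 for Dnajb9 and 0.39 for Creld2. Without WT8 the sign of Dnajb9 turned, and without KO4 that of Creld2. Manf, a secreted ER stress-induced factor, had means of 3578 ± 471 in Gsdme_KO and 3378 ± 1171 in WT (SD, n = 4). Hyou1, an ER HSP110 that exchanges nucleotide on BiP, had means of 2988 ± 343 in Gsdme_KO and 2932 ± 751 in WT (SD, n = 4). Dnajc3, which encodes the cochaperone p58IPK, and Sdf2l1, an ER-resident cochaperone gene, had log2 fold changes of -0.13 (SE 0.0923) and -0.18 (SE 0.139).

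The protein disulfide isomerases, which form and rearrange disulfide bonds in the ER, all had slightly lower means in Gsdme_KO, with log2 fold changes of -0.12 to -0.08 and 0 of 3 called. Without WT5 that of Pdia4 was 0.04, and without KO4 that of Pdia3 was -0.15. Pdia3 (ENSMUSG00000027248, chr2:121413775-121438687), the partner of calnexin and calreticulin, had 14974, 12212, 12452 and 12686 in the Gsdme_KO libraries, against 12670, 14557, 13918 and 14116 in the WT libraries. The highest and the lowest library were both Gsdme_KO (SE 0.103, limma adjusted p = 0.889). Pdia6 (ENSMUSG00000020571, chr12:17266545-17284770) had 4583, 4054, 3397 and 3841 in the Gsdme_KO libraries, against 3516, 4648, 4397 and 4694 in the WT libraries (log2 fold change -0.12, SE 0.126, limma adjusted p = 0.870). Its value without KO4 and KO5 was -0.25. Pdia4 had means of 2768 ± 158 in Gsdme_KO and 2959 ± 534 in WT (SD, n = 4).

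ERAD genes had 3 positive and 2 negative log2 fold changes, median 0.03. Edem1 and Edem2 encode proteins of the EDEM family, which mark misfolded glycoproteins for removal. Edem1 (ENSMUSG00000030104, chr6:108828641-108859356) had 4353, 3746, 3879 and 3549 in the Gsdme_KO libraries, against 3909, 4628, 3791 and 3594 in the WT libraries (log2 fold change -0.03, SE 0.104, limma adjusted p = 0.952). Edem2 (ENSMUSG00000038312, chr2:155701677-155729475) had 1208, 1406, 1383 and 1354 in the Gsdme_KO libraries, against 1151, 1433, 1345 and 1130 in the WT libraries (log2 fold change 0.09, SE 0.101, limma adjusted p = 0.877). The genotypes overlapped for both genes, and WT5 was the highest library for each. Herpud1, a membrane protein that gathers the ERAD ligase complex, had 1443, 1588, 1663 and 1437 in the Gsdme_KO libraries, against 1705, 2232, 1072 and 935 in the WT libraries. All 4 Gsdme_KO values lay inside the WT range, and the log2 fold change of 0.13 was 0.36 without WT5 and -0.06 without WT8. Syvn1, which encodes the ubiquitin ligase HRD1, had means of 2119 ± 249 in Gsdme_KO and 2415 ± 683 in WT, and Sel1l, its adaptor, of 3046 ± 285 in Gsdme_KO and 3008 ± 540 in WT (SD, n = 4).

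Most of the chaperone and ERAD genes among the 36 were highest in the same WT library, WT5, which held 16109031 reads. It was the highest library for 9 of the 10 chaperone genes and for 5 of the 5 ERAD genes. Over the 36 genes it was the highest for 17 (47.2%), against 13% of all genes tested. With quantile normalization the counts were 5 of 10, 3 of 5 and 12 of 36, against 12.6% of all genes tested, and with TMM factors they were 9, 5 and 17. With quantile normalization KO4 was also the highest for 12 of the 36 and 3 of the 10 chaperone genes, against 23.3% of all genes tested. In the wider lists described below, WT5 was the highest library for 7 of 18 other ER chaperones and oxidoreductases (38.9%). Among 19 other ERAD genes it was the highest for 4 (21.1%), and KO4 was the highest for 6. WT8 was the lowest library for 4 of the 10 chaperone and 4 of the 5 ERAD genes (4 and 2 with quantile normalization), and for 12.4% of all genes tested. KO5 was likewise the lowest for 4 of the 10 chaperone genes (3 with quantile normalization), and for 9.68% of all genes tested. Relative to the WT mean on the log2 scale, the mean over the chaperone genes was 0.14, -0.18, -0.11 and 0.001 in KO4, KO5, KO7 and KO8, against -0.13, 0.42, -0.09 and -0.20 in WT3, WT5, WT7 and WT8. For ERAD genes it was -0.06, 0.03, 0.12 and -0.04 in the Gsdme_KO libraries, against 0.05, 0.38, -0.13 and -0.31 in the WT libraries. The sensors did not share this order, and WT5 was their lowest library (-0.14). The amino acid and one-carbon branch was also lowest in WT5 (-0.22). Of the 8 genes with an ERSE printed above, 6 were highest in WT5, as were 9 of the 24 genes with a promoter but no ERSE. The 24 include sensors, enzymes and feedback targets, so the 2 counts do not compare like branches. All chaperone and ERAD genes among the 24 (Dnajb9, Sdf2l1, Herpud1, Sel1l, Edem1 and Edem2) were highest in WT5. With an ERSE, Canx was highest in WT7 and Pdia6 in WT8. The part of the ERSE in this order was not tested.

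**Figure D4:**
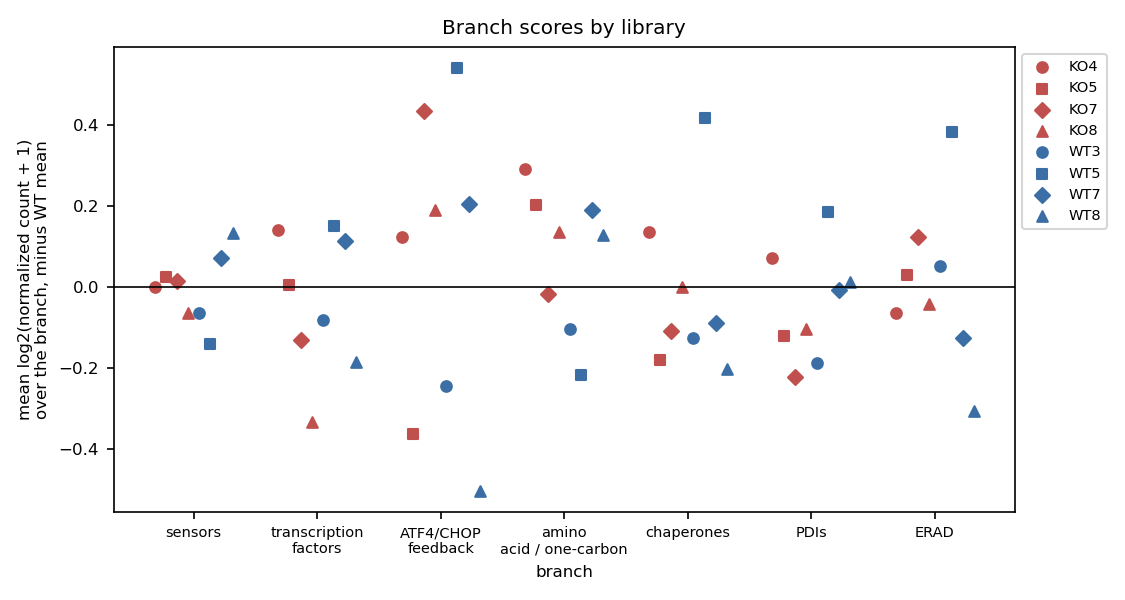
Mean log2(normalized count + 1) over the genes of each branch, as the difference from the WT mean, one point per library (Gsdme_KO red, WT blue, shapes by library). WT5 is the highest point of the chaperone, ERAD, isomerase, transcription factor and feedback branches and the lowest of the sensor and amino acid branches.

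WT5 and WT8 also lay at the ends of the second principal component (14.6% of variance), at 34.7 and -43.6. The 8 plasma cell markers, which include Xbp1, summed to 128669 to 179610 in Gsdme_KO, against 193172 in WT5, 92153 in WT8 and 123688 to 140191 in WT3 and WT7. The 8 goblet markers summed to 185785 to 357110 in Gsdme_KO, against 377504 in WT5 and 264533 to 337099 in the other 3 WT libraries. For the 7 Paneth markers, which did not share this order, the sums were 206819 to 441148 in Gsdme_KO, against 208406 in WT5, 166144 in WT8 and 235567 to 339831 in WT3 and WT7. The 6 enteroendocrine markers went the other way, with 3818 in WT5, 5998 in WT8 and 3242 to 4119 in Gsdme_KO. By gene, WT5 was the highest library for 5 of the 8 plasma cell, 4 of the 8 goblet and 0 of the 7 Paneth markers. The largest plasma cell marker was Igha, at 103960 in WT5. The part of these cell types in the chaperone and ERAD values was not tested. Of 7 pancreatic acinar markers, another cell type rich in ER, 5 were at 0 in all libraries and the sum of the 7 ran from 1.82 to 2.77 in Gsdme_KO and 0 to 4.76 in WT.

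**Figure D5:**
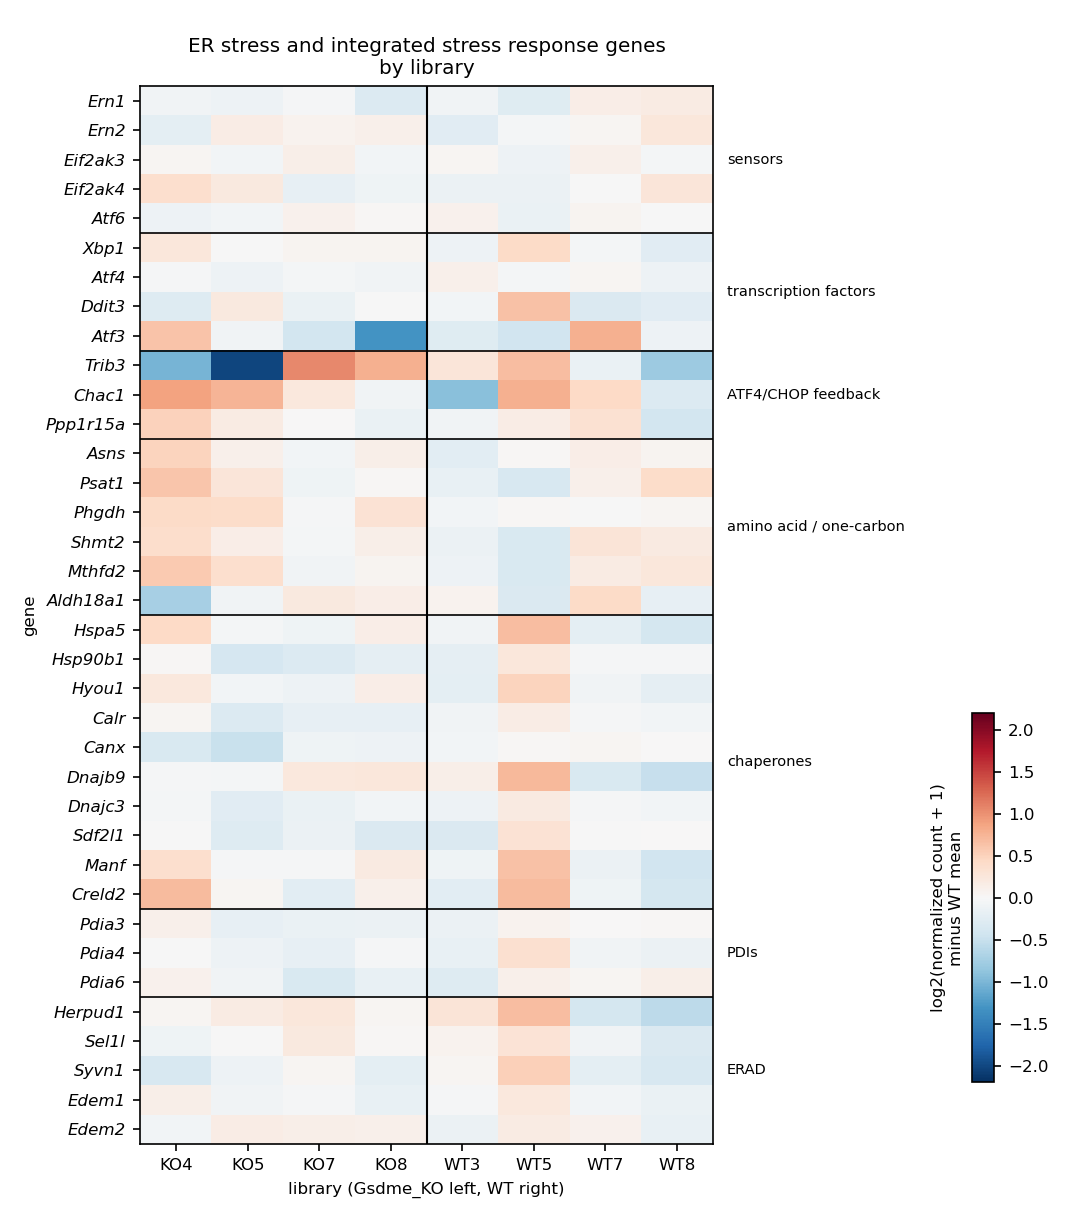
Each cell is log2(normalized count + 1) of a gene in a library minus the WT mean of that gene, Gsdme_KO left of WT, with branches separated by lines. WT5 is red through the ERAD genes and most chaperone genes, KO4 through 5 of the 6 amino acid and one-carbon genes, and Trib3 spans the widest range of colour.

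The other genes of the pathway, 131 in 9 lists, also gave no call. Of 130 tested, 0 were called higher and 0 lower by limma, edgeR or DESeq2, and 2 had an unadjusted limma p under 0.05, where 4.38% of all genes tested did. These were Ddit4, a stress-induced inhibitor of mTORC1 signalling, and Ero1b, an oxidase that recharges disulfide isomerases. Ddit4 had 1286, 1268, 772 and 846 in KO4, KO5, KO7 and KO8, against 877, 799, 643 and 641 in WT3, WT5, WT7 and WT8 (log2 fold change 0.47, SE 0.195, unadjusted p = 0.0399, limma adjusted p = 0.849). Ero1b had means of 361 ± 110 in Gsdme_KO and 245 ± 53.3 in WT (SD, n = 4; log2 fold change 0.53, SE 0.227, unadjusted p = 0.0439, limma adjusted p = 0.849). KO4 was the highest library for both, and the part of its marker sums was not tested. By edgeR, 3 of 21 other ATF4 and CHOP targets and 1 of 18 other ER chaperones and oxidoreductases had an unadjusted p under 0.05. Of all genes tested, 982 of 16352 did. By DESeq2 these counts were also 3 and 1, with 2 of 14 other ER stress transcription factors and proteases and 1 of 13 genes of the synthetase list. Over all genes DESeq2 gave 1135 of 16352.

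By list, 14 of 21 other ATF4 and CHOP targets had a positive log2 fold change (median 0.09). So did 12 of 13 genes of the cytosolic tRNA synthetase list (median 0.09), which also holds the tRNA export gene Xpot. Over all genes tested, 50.6% were positive, with a median of 0.003. Many of the synthetase genes are known ATF4 targets. KO4 was the highest library for 9 of the 21 targets (42.9%) and 7 of the 13 genes of the synthetase list (53.8%), against 25.6% of all genes tested. The tryptophanyl-tRNA synthetase gene Wars1, chosen after its values were seen, had 12376 in KO4 and 2231 to 3924 in the other Gsdme_KO libraries, against 2151 to 2888 in WT. KO4 also had the highest summed T cell (1170), macrophage and monocyte (12388) and neutrophil (917) markers. The part of these cells, or of ATF4, in the Wars1 value was not tested. Mars1, methionyl-tRNA synthetase, had 757, 749, 748 and 757 in the Gsdme_KO libraries, against 641, 566, 745 and 725 in the WT libraries. It was the 1 gene of the 130 whose libraries did not overlap between genotypes, against 2.5% of all genes tested in either direction, and WT7 lay close to the Gsdme_KO libraries (log2 fold change 0.18, SE 0.0988, limma adjusted p = 0.849). Mars1 shares exon bases with Ddit3. WT5 was the lowest library for 9 of these 13 genes, and for 14.8% of all genes tested. Other ER chaperones and oxidoreductases had 5 positive and 13 negative values (median -0.05), and other ERAD genes 8 and 11 (median -0.02). Fam8a1, a cofactor of HRD1, had the smallest p of that list. It had 1961 in KO4 and 2368 in KO5 but 3759 and 3545 in KO7 and KO8, against 2907 to 3901 in WT. Translocation and signal peptide genes had 10 positive and 6 negative values (median 0.02), with Spcs3 at 1563 ± 40.1 in Gsdme_KO and 1475 ± 94.6 in WT (SD, n = 4). Initiation factor and kinase genes had 6 and 4 (median 0.05), with Eif2s2 at 9310 in KO4 and 7654 in KO5 but 4593 and 4681 in KO7 and KO8, against 4568 to 5681 in WT. Other ER stress transcription factors and proteases had 9 and 5 (median 0.05), with Cebpg, a partner of ATF4, at 1885 ± 65.9 in Gsdme_KO and 2125 ± 162 in WT (SD, n = 4). Stress pathways outside the ER were also counted. Cytosolic heat shock genes had 6 positive and 6 negative values (median -0.07), with Hspa4l at 774 ± 107 in Gsdme_KO and 908 ± 102 in WT (SD, n = 4). Mitochondrial chaperone and protease genes had 4 and 3 (median 0.015), with Hspe1 at 1790 ± 131 in Gsdme_KO and 1973 ± 116 in WT (SD, n = 4). Of the 12 heat shock genes, KO4 was the highest library for 5 and KO7 the lowest for 7, and WT5 was the highest for 6.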

How the data were processed

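Per the labels' protocols, column-purified total RNA of 8 ilea was poly(A)-selected and made into strand-specific libraries. The deposited table holds normalized signal by the authors: read counts over a size factor per library. GRCm38, DESeq2, featureCounts, Subread, HISAT2 and SAMtools are named in the submitters' processing notes. The sources used here do not give versions, annotation release or strand setting. All values (100%) were whole multiples of 1 step per library within 0.01 reads, so reads were recovered; the divisors ran from 0.821 to 1.33. No row lacked a gene ID and 0 columns were left unused. No 2 libraries agreed within sampling noise (lowest chi-square per degree of freedom 11.5). The labels number the mice of each genotype but give no litter or cage, and p-values measure the spread between these samples.

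Genotypes were compared with limma-trend (version 3.58.1, R 4.3.3) on log2(normalized count + 1), with a pseudocount of 1 and no covariate, for 16352 genes with a mean of at least 10, and Benjamini-Hochberg adjusted p-values under 0.05 were called. Fold changes on this scale understate those of low genes. Recovered reads were tested with edgeR 4.0.16, which called 1 gene, and DESeq2 1.42.0, which called 8 higher and 1 lower; both were alternatives. Other alternatives were other pseudocounts, filters, scalings and array weights, and leaving out libraries. The limma step was checked on simulated data. Positions and exon lengths are from GENCODE M21 on GRCm38.

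Values in every library are given, per branch, for the gene of smallest unadjusted p and that of highest mean; per-library values of the other genes were chosen for print after they were seen. The members and lists were chosen with earlier results of these data known. Reads of Ddit3, Syvn1, Manf, Pdia3, Shmt2 and Hsp90b1 are uncertain where other expressed genes share exon bases with them.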

Additional observations from a re-analysis of the deposited data

Results flagged for a closer look

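For 2 genes, 1 library stood far from the other 3 of its genotype, by the gap to the nearest library as a share of the range of the 4 (past Dixon's 95% critical value). Both were in WT5. Hyou1 had 4045 normalized counts in WT5, against 2459 to 2720 in the other WT libraries (gap 0.835 of the range), and Pdia4 had 3755 in WT5, against 2628 to 2779 (gap 0.866). Chance flags about 1 in 20 groups, and 88 groups were looked at, so 2 flags are not more than chance gives. Both genes encode ER folding factors, and WT5 was also the highest library for most chaperone and ERAD genes. The cause was not tested.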

How the results depend on the processing

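None of the 36 genes was called with another pseudocount, filter, scaling, weighting or tool, with any library left out, or at an adjusted p under 0.1. Over all genes, 1 was called higher and 0 lower with all libraries; DESeq2 called 8 and 1, and without KO4 and KO5 the counts were 0 and 1. With 1 library left out, 0 to 1 were called higher, and 1 only without WT8. The log2 difference of Gsdme was -2.89 with array weights (limma adjusted p = 0.0999), -3.03 by edgeR (edgeR adjusted p = 0.812), -2.37 without KO4 and KO5, and -3.71 to -2.88 with 1 library left out, where an exact permutation cannot give a p under 0.0571 (0.133 without KO4 and KO5).

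The sign of the log2 fold change turned under at least 1 alternative for 21 of the 36 genes, all uncalled: 8 without KO4 and KO5, 5 with array weights, 4 with quantile normalization, 1 each by edgeR and DESeq2, and 18 with some library left out (7 without KO4, 7 without WT8, 5 without WT5). All branch medians moved by less than the spread between libraries. Those near 0 changed sign in some fits. The chaperone median was 0.08 without WT5, and the feedback median was -0.08 at a mean of at least 50, where Chac1 is not tested. Of the genes with full statistics, Atf6 (-0.066 to 0.017 with 1 library left out) was 0.003 with quantile normalization and 0.059 without KO4 and KO5. Ppp1r15a was -0.076 with array weights and -0.062 without KO4 and KO5. Aldh18a1 (-0.220 to 0.093 with 1 library left out) was 0.18 without KO4 and KO5. Edem1 (-0.090 to 0.041 with 1 library left out) was 0.005 with quantile normalization.

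No paired analysis was possible because the mice of the 2 genotypes are different animals that share at most a number, with no litter or batch given, and the columns do not carry those numbers.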
